A study of Mus musculus with 4 samples.

Results

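*Ptpn12*, *Sh3bp5*, and *Dhx57* are 3 of the long mouse genes whose bodies were most densely occupied by H3K27ac peaks in isolated liver sinusoidal endothelial cells (LSECs). They were selected on measured values. The GRCm38 annotation of RefSeq holds 21887 protein-coding genes, of which 4945 span 50 kb or more, and by the share of gene body covered by peaks of both H3K27ac libraries the 3 genes ranked 1, 2, and 4 among these long genes. Their covered shares and ranks, and the counts of peaks that make them up, are therefore descriptions and were given no test. H3K27ac was profiled by chromatin immunoprecipitation and sequencing (ChIP-Seq) in 2 libraries, called replicates 2 and 3 after their labels, and the inputs with the same numbers, libraries of chromatin without immunoprecipitation, were not analysed here. The labels give neither the genotype, age, and treatment of the mice nor whether the libraries came from separate animals. The study's isolation protocol names mice that carry a floxed *Col4a1* allele, with or without *Cdh5* CreERT2, a tamoxifen-inducible Cre driven by the vascular endothelial cadherin promoter, and *dCas9-KRAB Cdh5* CreERT2 mice. In that protocol, LSECs were purified with beads against CD146 and were kept briefly in culture on collagen type I before harvest, and which line supplied these libraries is not given in the sources used here.

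H3K27ac, the acetylation of a lysine on histone H3, marks active promoters and active enhancers, and peaks inside a gene body can lie at internal promoters or at enhancers, which may act on that gene or on another one. *Ptpn12* encodes PTP-PEST, a cytosolic tyrosine phosphatase that removes phosphate from adhesion proteins such as p130Cas and paxillin and acts in cell spreading and migration, including that of endothelial cells. *Sh3bp5* encodes SAB, a protein of the mitochondrial outer membrane that docks the stress kinase JNK and that also serves as an exchange factor for the small GTPase Rab11, whereas *Dhx57* encodes a putative RNA helicase of the DEAH-box family whose function is little characterised.

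The list of replicate 2 held 26975 peaks and that of replicate 3 held 64498 peaks, with median widths of 322 and 345 bp. Each peak carries a fold enrichment, the authors' ratio of signal over background at the summit, whose median was 9.76 in replicate 2 and 8.89 in replicate 3. Fold enrichments are compared here only within a list, by percentile, since the number of reads behind each list is unknown. A shared region is a stretch of at least 1 bp that lies in peaks of both libraries, and 26844 such regions were found, with a median width of 321 bp. As a check of the cell type, 10 of 15 LSEC marker genes had a shared region within 1 kb of a gene end. Of 37 marker genes of Kupffer cells, lymphocytes, hepatocytes, cholangiocytes, and hepatic stellate cells, 1 did. The same was true of 9489 of all 21887 protein-coding genes (43.4%). In replicate 3 taken by itself, a peak lay there at 14 of the 15 LSEC markers and at 6 of the 37 others. Among the LSEC markers, *Erg* had no peak at either end in either library, but 12 shared regions covered 1.81% of its 227 kb body. Among the 37 others, the stellate cell marker *Pdgfra* and the macrophage marker *Csf1r* also had shared regions in the body without a peak at an end. In *Pdgfra* 2 regions covered 0.934%, and in *Csf1r* 1 region covered 1.71%.

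Sequences at annotated starts are shown first, to set the peaks at the gene ends against the promoters. RefSeq promoter windows (GRCm38.p6, 250 bases before to 50 after a start) were matched for 2 of the 3 genes, *Sh3bp5* and *Dhx57*, and not for *Ptpn12*. *Morn2*, which starts next to *Dhx57* on the other strand, is shown beside it. Capitals mark bases inside peaks of both libraries. The windows are *Sh3bp5* at chr14:31436051-31436350 on the minus strand, *Dhx57* at chr17:80290427-80290726 on the minus strand, and *Morn2* at chr17:80289962-80290261 on the plus strand.
Sh3bp5: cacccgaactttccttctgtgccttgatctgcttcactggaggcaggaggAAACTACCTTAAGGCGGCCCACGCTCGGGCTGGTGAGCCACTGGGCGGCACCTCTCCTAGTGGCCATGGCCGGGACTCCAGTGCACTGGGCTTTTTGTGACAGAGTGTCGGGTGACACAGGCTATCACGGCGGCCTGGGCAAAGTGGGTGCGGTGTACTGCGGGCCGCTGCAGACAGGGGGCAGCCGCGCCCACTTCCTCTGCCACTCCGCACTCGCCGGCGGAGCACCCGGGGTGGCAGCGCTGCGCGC
Dhx57: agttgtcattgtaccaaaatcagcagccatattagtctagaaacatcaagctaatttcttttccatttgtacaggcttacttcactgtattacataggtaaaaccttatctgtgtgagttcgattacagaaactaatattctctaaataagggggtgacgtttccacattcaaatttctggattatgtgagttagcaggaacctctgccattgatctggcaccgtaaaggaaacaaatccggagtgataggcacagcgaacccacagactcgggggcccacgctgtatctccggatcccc
Morn2: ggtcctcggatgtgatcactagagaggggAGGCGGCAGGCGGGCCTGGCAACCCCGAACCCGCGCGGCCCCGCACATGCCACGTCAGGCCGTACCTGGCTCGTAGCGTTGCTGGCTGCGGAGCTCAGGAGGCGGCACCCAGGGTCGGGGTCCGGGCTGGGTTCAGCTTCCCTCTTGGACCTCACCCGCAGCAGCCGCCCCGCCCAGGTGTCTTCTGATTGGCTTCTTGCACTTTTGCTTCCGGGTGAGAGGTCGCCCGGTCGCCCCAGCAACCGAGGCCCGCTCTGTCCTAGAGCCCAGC

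In the *Sh3bp5* window, 250 of 300 bases lay in peaks of both libraries, and its GC content was 66.7% with 22 CpG dinucleotides, against medians of 52.7% and 7 over the 32817 windows of the table. The *Dhx57* window held no base in a shared region and 79 bases in a peak of replicate 3 alone, and its GC content was 42.7% with 8 CpG dinucleotides. The *Morn2* window held 271 bases in a shared region, with a GC content of 69% and 25 CpG dinucleotides. Thus the start of *Sh3bp5* was acetylated in both libraries, and at the *Dhx57*–*Morn2* pair the shared region lay over the GC-rich *Morn2* window and ended 0.032 kb short of the *Dhx57* window. *Sh3bp5* has a second RefSeq start inside its body, at chr14:31417628-31417927, and no peak of either library touched that window; the nearest shared region lay 4.59 kb away. Exact matches to 6 short motifs were counted on both strands. The GC box GGGCGG, found in 35.6% of all windows, occurred 1 time at *Sh3bp5* and 2 times at *Morn2*. The *Morn2* window also held 1 match to the ETS core CCGGAA (14.9% of windows) and 1 to CCAAT (37.4%), and the *Dhx57* window held 1 match to the GATA motif AGATAA (11.2%). No window shown held the AP-1 motif TGACTCA (5.20% of windows) or the CRE TGACGTCA (1.79%).

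*Ptpn12* (Gene ID 19248, chr5:20986645-21055911, 69.3 kb) had 9.12% of its body, 6314 bp, in shared regions. The share was 9.28% in replicate 2 and 17.5% in replicate 3. *Sh3bp5* (Gene ID 24056, chr14:31372614-31436100, 63.5 kb, minus strand) had 8.40%, or 5333 bp, with 8.72% in replicate 2 and 21.8% in replicate 3. *Dhx57* (Gene ID 106794, chr17:80238304-80290476, 52.2 kb, minus strand) had 6.85%, or 3576 bp, with 6.89% in replicate 2 and 11.8% in replicate 3. The share in replicate 3 was larger at each gene, as it was over all 4945 long genes, whose median was 0.276% in replicate 2, 1.07% in replicate 3, and 0.272% for shared regions. In replicate 3 alone, *Sh3bp5* ranked 1, *Ptpn12* ranked 5, and *Dhx57* ranked 43. At least 5% of the body was covered in 22 long genes (0.445%), and all 3 genes are among them by the rule itself.

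The genes around them in the ranking were close in value. *Klf13*, a Krüppel-like transcription factor gene at rank 3, had 6.88%, or 3615 bp against 3576 bp in *Dhx57*, and *Calcrl*, the receptor gene of adrenomedullin and CGRP at rank 5, had 6.70%. *Cemip2* (6.4%), *Abi1* (6.18%), *Synpo* (5.99%), *Sash1* (5.79%), and *Ift122* (5.61%) completed the 10 highest. The limit of 50 kb also decides membership, since 7 of 1062 genes of 40 to 50 kb had a larger share than *Dhx57*, led by *Cdh5*, the vascular endothelial cadherin gene, with 12.3% of 42.9 kb, and *Ampd3* with 11.1%; these were named after their values were seen. All 3 genes were also short among the long genes, at the 26.7th, 20.1st, and 4.02nd percentile of length for *Ptpn12*, *Sh3bp5*, and *Dhx57*, where the median length was 98.5 kb.

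The 3 genes ranked higher by the number of shared regions per length than by the mean width of those regions. *Sh3bp5* held 14 shared regions, or 2.21 per 10 kb, the highest density of all 4945 long genes, and their mean width of 381 bp ranked 835. *Ptpn12* held 12 regions, 1.73 per 10 kb (rank 6), with a mean width of 526 bp (rank 274). *Dhx57* held 9 regions, 1.73 per 10 kb (rank 7), with a mean width of 397 bp (rank 729). Density was ranked among all 4945 long genes, and mean width only among the 3206 long genes with any shared region. Over all long genes the median density was 0.11 per 10 kb. The 3206 genes had a median of 2 regions and a median mean width of 293 bp. Single regions were mostly narrow: 8 of 12 in *Ptpn12*, 13 of 14 in *Sh3bp5*, and 8 of 9 in *Dhx57* were under 500 bp wide, whereas 2, 1, and 1 exceeded 1 kb. The number of regions also depends on how the caller split the signal in replicate 2, because the 12 regions of *Ptpn12* lay in 6 peaks of replicate 3, the 9 of *Dhx57* in 6, and the 14 of *Sh3bp5* in 13. With regions under 1 kb apart joined, *Ptpn12* held 4, *Dhx57* 6, and *Sh3bp5* 12, so the high number at *Ptpn12* rests on closely spaced pieces.

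**Figure D1:**
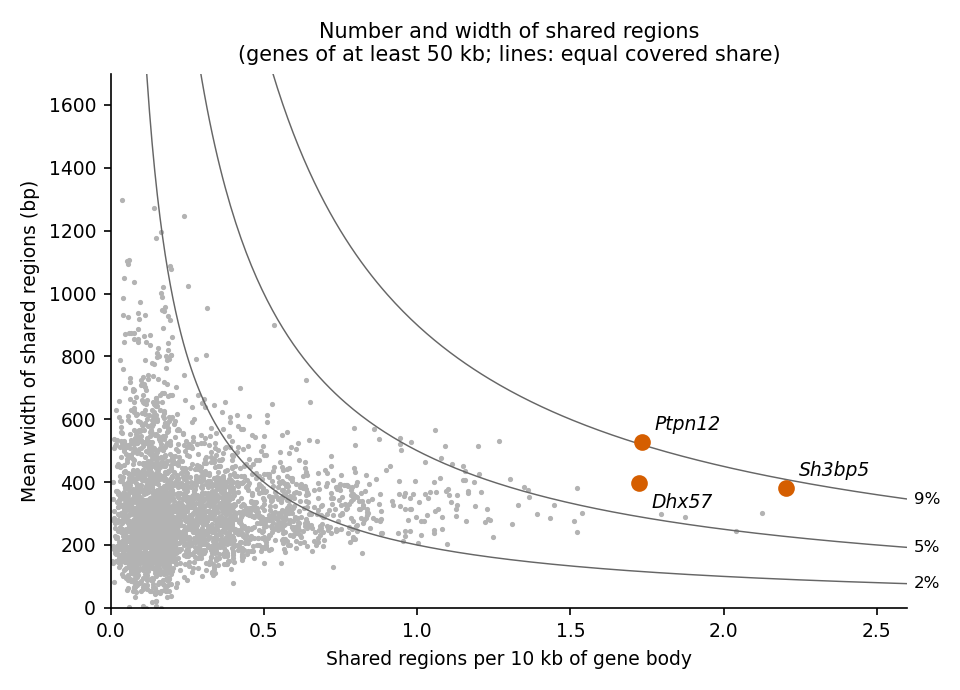
Shared regions per 10 kb of gene body (x axis) against their mean width in bp (y axis) for each protein-coding gene of at least 50 kb with a shared region (grey points), with the 3 genes in orange and lines of equal covered share at 2%, 5%, and 9%. *Sh3bp5* sits farthest to the right at 2.21 regions per 10 kb, and *Ptpn12* and *Dhx57* lie at 1.73.

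In *Ptpn12*, every shared region lay in the 21.2 kb next to the end with the higher coordinate (chr5:21034721-21055911, 30.6% of the body), and the other 48.1 kb held none. This empty stretch was 69.4% of the body, and among the 261 long genes with at least 8 shared regions the longest gap took a larger part of the body in 6 genes and a smaller part in 254. The strand of *Ptpn12* was not given in the tables used here, so its ends are named by coordinate. Most of the regions fell into 3 groups. The first sat across the high end, where the replicate 2 peak at chr5:21054354-21056492 (2139 bp) had a fold enrichment of 35.4 and the replicate 3 peak at chr5:21053236-21057108 (3873 bp) had 89.5, the 97.3rd and 98.0th percentile of their lists. Their summits were 203 and 286 bp beyond the annotated end, at the border of the gene. Inside the body, these peaks shared a region of 1558 bp, the widest of the gene. The second group held 6 regions, the widest of which (chr5:21044874-21046209, 1336 bp) lay 9.70 kb inward and had a fold enrichment of 23.7 in replicate 2 and of 56.3 in replicate 3. The third held 2 regions at chr5:21034721-21034995 and chr5:21035533-21036097, the latter with fold enrichments of 11.4 and 32.8. A single region, chr5:21050324-21050750, lay between the first group and the second, with fold enrichments of 6.71 and 13.0. Gaps between neighbouring regions had a median of 493 bp, and 8 of 11 were under 1 kb. At the low end the nearest peak lay outside the gene, 34.6 kb away in replicate 2 and 17.3 kb away in replicate 3.

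Replicate 3 also held 9 peaks in *Ptpn12* with no counterpart in replicate 2, with fold enrichments of 3.11 to 10.4. Of these, 4 lay deeper in the body than any shared region, with summits 22.4, 25.5, 38.6, and 46.4 kb from the high end and fold enrichments of 4.56, 10.4, 9.32, and 7.33. The rest of the low-coordinate part had no peak in either library.

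**Figure D2:**
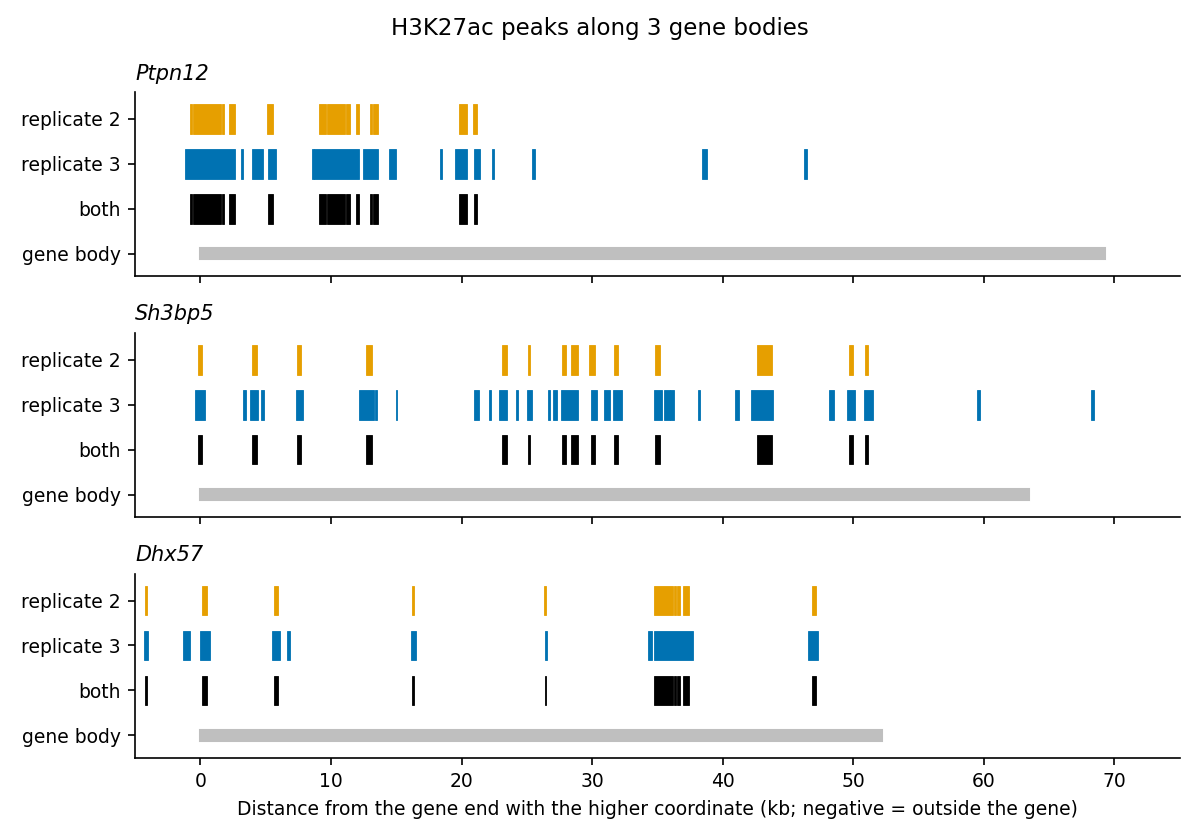
Peaks of replicate 2 (orange), replicate 3 (blue), and shared regions (black) along the bodies of *Ptpn12*, *Sh3bp5*, and *Dhx57* (grey), by distance in kb from the gene end with the higher coordinate. The 12 regions of *Ptpn12* crowd within 21.2 kb of that end, whereas the 14 of *Sh3bp5* and the 9 of *Dhx57* run over 51.2 and 47.0 kb.

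In *Sh3bp5*, shared regions were spread along nearly the whole body. They ran from chr14:31384945 to the 5′ end at chr14:31436100, 51.2 kb or 80.6% of the body, and when the gene was divided into 3 equal parts, the low-coordinate (3′), middle, and high-coordinate (5′) part held 31.0%, 44.0%, and 25% of the covered bases. The longest gap was the 12.3 kb at the 3′ end, or 19.4% of the body. This part was larger in 248 of the 261 long genes with at least 8 regions. *Dhx57* was alike by this measure, with a longest gap of 19.5% of the body and 247 of these genes above it. Its regions ran over 90.2% of its body. The longest gaps were not adjusted for gene length or number of regions. Neighbouring regions were a median of 2842 bp apart, and only 2 of 13 gaps were under 1 kb. Widths ran from 154 to 1150 bp with a median of 326 bp.

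The highest fold enrichment in *Sh3bp5* fell at a different place in each library. In replicate 2 it was 21.4 (85.3rd percentile), at an internal region of 1150 bp (chr14:31392353-31393502) 42.6 kb from the 5′ end, where replicate 3 had 47.2 (90.7th percentile). In replicate 3 it was 53.1 (92.4th percentile), at the 5′ end, where replicate 2 had 14.6 (70.3rd percentile) and the summits lay 16 and 79 bp upstream of the annotated end. Of the 12 other regions, the highest in replicate 2 was chr14:31407201-31407693 with 14.9, and the highest in replicate 3 was chr14:31386149-31386408 with 37.0. The promoter of *Sh3bp5* was thus not the dominant peak of the gene in replicate 2. Replicate 3 held 16 further peaks in the body with fold enrichments of 3.04 to 17.3, the rest of them between the shared regions and 1 inside the 3′ gap, 59.6 kb from the 5′ end with a fold enrichment of 4.72.

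In *Dhx57*, most covered bases sat in a single internal cluster. Of 3 equal parts of the body, the one at the 3′ end of this minus-strand gene held 70.6% of them, the middle one 4.28%, and the one at the 5′ end 25.1%. Within 3019 bp, at chr17:80252718-80255736, 1 wide peak of replicate 3 with a fold enrichment of 63.8 (94.8th percentile) contained 4 peaks of replicate 2. The widest of these gave a region of 1451 bp (chr17:80254264-80255714) with a fold enrichment of 35.2 in replicate 2, at the 97.2nd percentile, and the summits of the 2 libraries, at 80255321 and 80255322, were neighbouring bases. A second peak of replicate 2 in the cluster, at chr17:80253080-80253511, had a fold enrichment of 28.5. The 1451 bp region alone held 40.6% of the covered bases of *Dhx57*, a larger part than the widest region held in 259 of the 261 long genes with at least 8 regions, and a smaller part than in 1.

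The 5′ end of *Dhx57* was the next highest site. Its shared region at chr17:80289991-80290394 had a fold enrichment of 18.6 in replicate 2 and of 39.2 in replicate 3, with summits 221 and 301 bp inside the annotated end, and the region ended 0.082 kb short of that end. The highest acetylation of *Dhx57* in both libraries thus lay at the internal cluster, 34.8 kb from the 5′ end at its nearest, and not at its start. The other 4 regions of 133 to 311 bp stood apart from these sites. Those at chr17:80243348-80243658, chr17:80274121-80274309, and chr17:80284505-80284808 had fold enrichments of 8.81, 10.8, and 11.5 in replicate 2 and of 24.4, 23.1, and 24.2 in replicate 3. The one at chr17:80263987-80264119, was the weakest, with 6.08 in replicate 2 and 5.02 in replicate 3, the 12.7th and 17.2nd percentile. Only 2 peaks of replicate 3 in the body had no counterpart, with fold enrichments of 4.74 and 5.61.

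The 3 genes therefore differed in how the same kind of coverage was laid out. The 10 kb with most covered bases held 62.5% of the total in *Dhx57*, 54.6% in *Ptpn12*, and 37.8% in *Sh3bp5*, against a median of 35.1% in the 261 long genes with at least 8 regions. By this measure 17 of those genes were more concentrated than *Dhx57*, 29 more than *Ptpn12*, and 104 more than *Sh3bp5*. A window of 10 kb is a larger part of a short gene. Neither this measure nor the next was adjusted for gene length or number of regions. The widest single region held 40.6%, 24.7%, and 21.6% of the covered bases in *Dhx57*, *Ptpn12*, and *Sh3bp5*, against a median of 20.4%. *Dhx57* was thus dominated by 1 region, *Ptpn12* by an arm of the gene with several, and *Sh3bp5* by none.

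**Figure D3:**
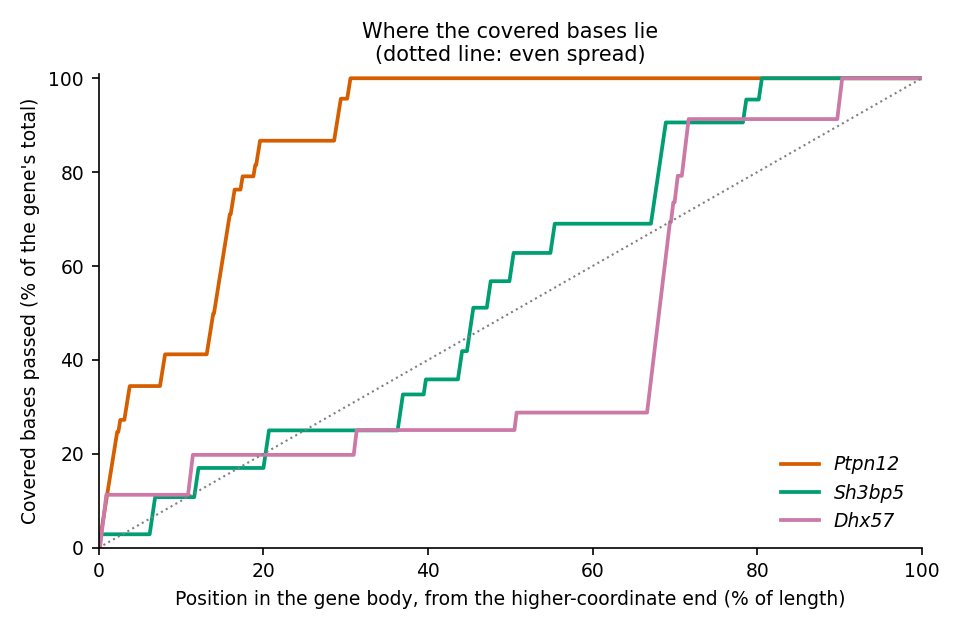
Percentage of each gene's covered bases passed (y axis) with position along the body from the higher-coordinate end (x axis, % of length); the dotted line is an even spread. *Ptpn12* reaches 100% at 30.6% of its length, *Sh3bp5* stays nearest to the dotted line, and *Dhx57* rises mostly in 1 step.

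Peaks were compared with the rest of their own list by percentile of fold enrichment. In replicate 2, 4 of 12 peaks in *Ptpn12*, 6 of 14 in *Sh3bp5*, and 5 of 9 in *Dhx57* were above the list's median of 9.76, with medians of 6.56, 9.63, and 10.8. Most peaks of *Ptpn12* and *Sh3bp5* in that library thus stood at or below the middle of the list. In replicate 3, the peaks behind shared regions had median fold enrichments of 22.9, 21.7, and 24.3, all above the list's median of 8.89, but peaks of replicate 3 that overlap a replicate 2 peak had a median of 27 over the genome (24294 peaks). In both *Ptpn12* and *Dhx57*, up to 4 replicate 2 peaks shared 1 wide replicate 3 peak. The median distance between the summits of the 2 libraries was 50.5 bp in *Sh3bp5*, 55 bp in *Dhx57*, and 292.5 bp in *Ptpn12*. Over the genome it was 34 bp, and 82.0% of 26749 replicate 2 peaks had their summit within 100 bp of that of the overlapping peak.

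**Figure D4:**
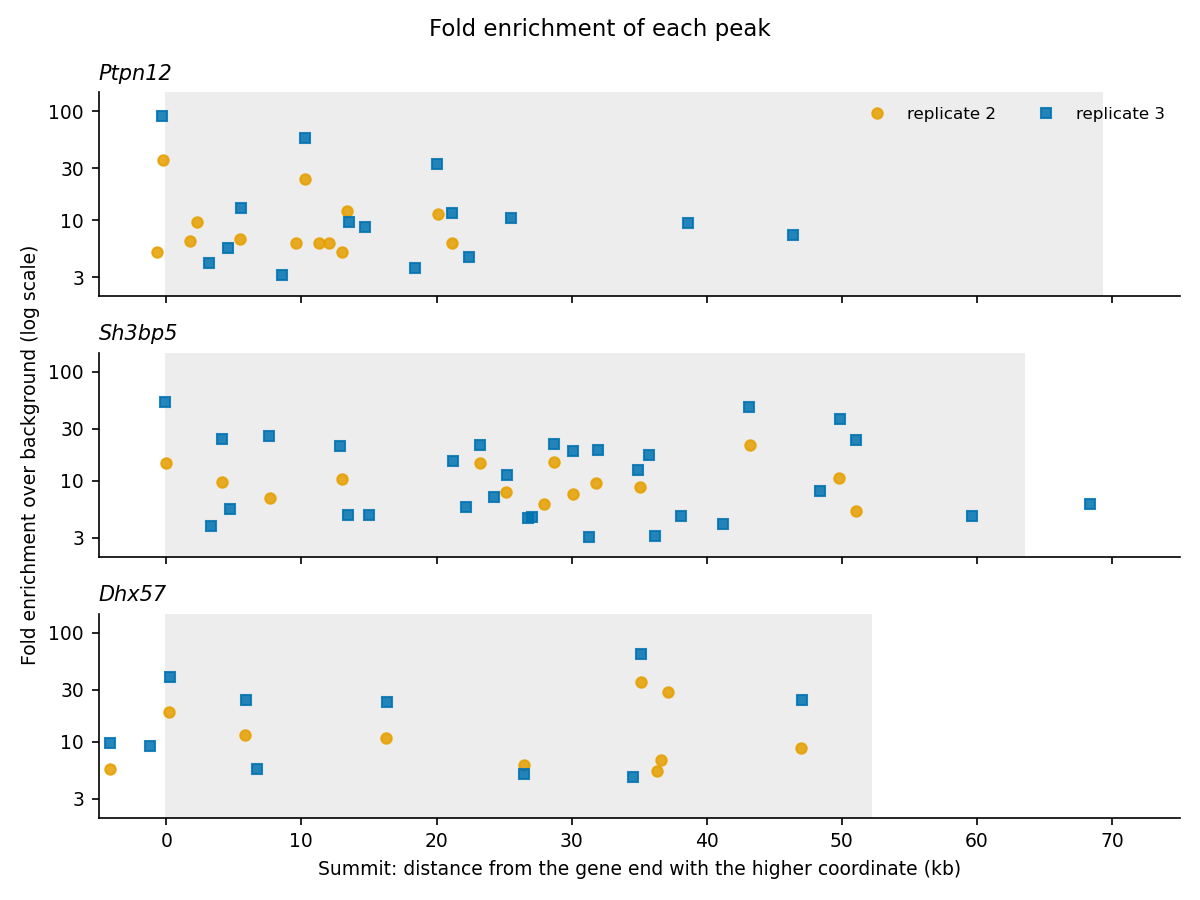
Fold enrichment over background (y axis, log scale) of each peak of replicate 2 (circles) and replicate 3 (squares) against the distance of its summit from the higher-coordinate gene end in kb (x axis); grey bands are the gene bodies. The highest points of *Ptpn12*, 35.4 and 89.5, lie just outside the body, and those of *Dhx57*, 35.2 and 63.8, lie at the internal cluster.

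A shared region lay within 1 kb of a gene end at all 3 genes, as it did at 2354 of the 4945 long genes (47.6%), and in each gene only at the high-coordinate end. Shared regions covered 1745 bp within 1 kb of the end on either side at *Ptpn12*, 354 bp at *Sh3bp5*, and 404 bp at *Dhx57*. At *Sh3bp5* and *Dhx57* this end is the 5′ end. None of the low-coordinate ends had a shared region, and the nearest replicate 3 peaks were 3.77 kb from that of *Sh3bp5* and 4.91 kb from that of *Dhx57*, both inside the gene.

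The surroundings of the genes were covered less than their bodies. In the 50 kb on the low side and on the high side, shared regions covered 3.57% and 1.49% at *Ptpn12*, 1.05% and 0.70% at *Sh3bp5*, and 3.98% and 0.364% at *Dhx57*, against a median of 0.514% for the flanks of all long genes. Since the genes were chosen for the share in the body, a lower share outside is part of that choice. A median for a single side was not computed, so the sides cannot be placed above or below it. Joined across gaps of at most 12.5 kb, the regions of *Ptpn12* formed a stretch of 22.0 kb that ran 0.803 kb past the high end, those of *Sh3bp5* a stretch of 51.4 kb that ran 0.20 kb past the 5′ end, and those of *Dhx57* a stretch of 51.4 kb that ran 4.27 kb past the 5′ end, into *Morn2*. None of the 3 stretches ran past the low end.

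**Figure D5:**
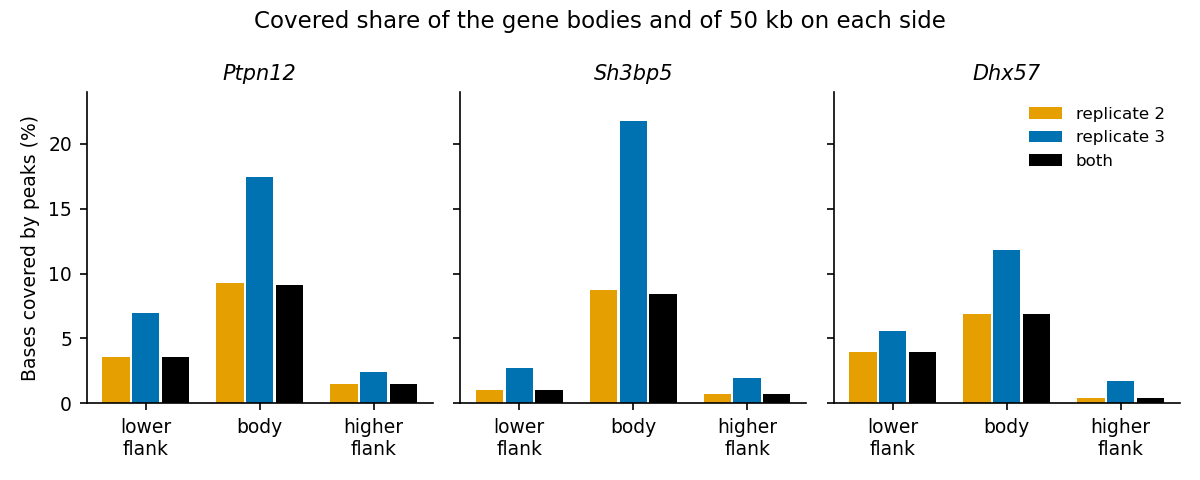
Percentage of bases covered (y axis) by peaks of replicate 2 (orange), replicate 3 (blue), and both (black) in the body and in the 50 kb on the lower-coordinate and higher-coordinate side of each gene; bars are single values with no error. The bodies stand at 9.12%, 8.40%, and 6.85% for both libraries, and the flanks at 3.98% or less.

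*Ptpn12* had no protein-coding gene within 100 kb on its high side. The long noncoding RNA gene *Gm42221* began 0.155 kb past that end, at chr5:21056067, so the strongest peaks of *Ptpn12* also covered its border, and 1.46% of its 40.4 kb was covered. On the low side, *Rsbn1l*, on the minus strand, lay 28.7 kb away with 2.98% of its body covered by 5 shared regions, none within 1 kb of its annotated ends. The long noncoding RNA gene *A630072M18Rik* within the *Rsbn1l* interval had 10.5% of 5.41 kb covered, with a fold enrichment up to 22.6 in replicate 2 and 72.9 in replicate 3. *Tmem60*, a membrane protein gene 99.8 kb away, had 4.66% covered.

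*Sh3bp5* and *Capn7*, a calpain protease gene on the plus strand, end 0.626 kb apart, tail to tail. *Capn7* had 1.02% of its body covered, by 1 region within 1 kb of an end, and its highest fold enrichment was 29.1 in replicate 2 and 57.1 in replicate 3. Across its 5′ end, *Sh3bp5* overlaps 867 bp of *Gm35907*, a long noncoding RNA gene on the plus strand, so the region at the start of *Sh3bp5* is counted for both. *Mettl6*, a tRNA methyltransferase gene 27.6 kb upstream, had 0.762% covered, and *Eaf1*, an RNA polymerase II elongation factor gene next to it, had 5.45%. *Dnah1*, an axonemal dynein gene 46.7 kb away, and *Colq*, which encodes the collagen-like tail of acetylcholinesterase, 87.0 kb away, had none. No neighbour within 100 kb of *Sh3bp5* held more than 2 shared regions, against 14 in *Sh3bp5*, which was chosen for its covered share. These counts were not adjusted for gene length.

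At *Dhx57*, the 5′ ends of *Dhx57* and *Morn2* overlap by 274 bp, with annotated starts 264 bp apart. *Morn2* had 3.78% of 9.89 kb covered by 2 regions, the first of them the 5′ region of *Dhx57*. On the 3′ side, the long noncoding RNA gene *Gm52289* overlaps the last 4000 bp of the gene and had no shared region. *Srsf7*, a splicing factor gene 30.9 kb away, had 14.1% of 7.29 kb covered by 3 regions, with a fold enrichment up to 27.1 in replicate 2 and 81.7 in replicate 3, and *Gemin6*, a gene of the SMN complex 9.81 kb away, had 3.95%. *Galm*, an aldose epimerase gene (53.3 kb), had 1.33%, *Arhgef33* (16.4 kb past the 5′ end) had 0.507%, and *Ttc39d* (20.4 kb) had none.

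Genes related to the 3 by function were then examined, from lists chosen with results of these data known. Of 18 substrates and partners of PTP-PEST, 9 had a shared region within 1 kb of a gene end, beside 43.4% of all protein-coding genes, and their median covered share was 1.21%, against 0% for all protein-coding genes. The adaptor gene *Shc1* had 10.1% of 11.5 kb covered by 3 regions, *Bcar1*, which encodes p130Cas, had 5.00% by 4, *Pxn*, the paxillin gene, had 4.05% by 7, and *Lpxn*, the leupaxin gene, had 3.59% by 1. The tyrosine kinase genes *Csk*, *Src*, and *Ptk2b*, the adaptor gene *Pstpip2*, and the actin regulator gene *Was* had no peak of either library at an end. Inside their bodies, *Csk* had 1.72% covered by 2 shared regions and *Src* 0.801% by 1, and the others had none. Among the PEST-type phosphatases, *Ptpn18* had 2.57% covered, and *Ptpn22*, a phosphatase best known from lymphocytes, had 0.932% and no peak at an end.

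Of 12 genes for SH3BP5 partners, the JNK module, and Rab11, 9 had a shared region within 1 kb of an end, beside the same 43.4% of all protein-coding genes, and the median covered share was 0.723%, against 0% for all. *Map2k7*, a kinase that activates JNK, had 4.46%, *Rab11b* had 3.98%, the docking protein gene *Dok4* had 2.71%, and *Rab11a* had 1.66%. *Mapk10*, the JNK gene best known from neurons, *Src*, and *Ptpn6*, the SHP-1 phosphatase gene, had no peak at an end in either library. Of these, only *Src* had a shared region in its body, which covered 0.801%. Of 18 DEAH- and DExH-box helicase genes, *Dhx57* included, 15 had such a region, again beside 43.4%, with a median covered share of 1.09%. *Dhx57* had the largest share at 6.85%, followed by *Dhx38*, a splicing helicase gene, at 4.0%, *Dhx58*, which encodes the RNA sensor LGP2, at 3.34%, and *Dhx34* at 2.42%, and the germline gene *Tdrd9* had no peak at an end. *Dhx57* also held more shared regions, 9, than any other gene of its list, where no other held more than 3. Since *Dhx57* was chosen for its covered share, its lead in this list is part of that choice. The counts of regions were not adjusted for gene length. These lists are small and were given no test.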

How the data were processed

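H3K27ac ChIP-Seq of isolated mouse LSECs was analysed from 1 list of peaks per library (replicates 2 and 3); the 2 inputs were not analysed here, and whether they served as controls in peak calling is not stated. Per the labels, chromatin was sonicated and libraries were ligation based, whereas the study's methods name tagmentation. The submitters' processing notes name mm10 (GRCm38), cutadapt 0.4.4, BWA 0.7.17, Picard 1.67, MACS2 2.0.10, and bedtools 2.27.1, without roles. Peaks were called by the authors per library, not on pooled libraries. The deposited lists give each peak's score, its fold enrichment (a ratio of signal over background), p- and q-values as −log10, and its summit; the smallest −log10 q was 2.04 and 2.01. They give no read counts, so depth is unknown, and a deeper or stronger library yields more and wider peaks.

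Peaks of both libraries were intersected base by base, and the share covered was computed for each protein-coding gene of at least 50 kb in the RefSeq table, whose positions count from 1. The gene table gives no exons, so exonic and intronic peaks were not separated; strands came from the RefSeq promoter windows. With 1 condition and 2 libraries, no test between groups was possible, and all values are descriptions. The genes and lists were chosen with earlier results of these data known. Genes named are the 3 genes, the 10 with the largest covered share, protein-coding genes within 100 kb, up to 4 genes per list with the largest share, and list genes without a peak at an end; noncoding neighbours, and the genes just under 50 kb, were added after their values were seen. The script was tested on simulated data. Python 3.11.15, numpy 2.4.6, pandas 2.3.3, and matplotlib 3.10.9 were used.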

Additional observations from a re-analysis of the deposited data

How the results depend on the processing

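For each of the 3 genes, the covered share, its rank, and the number of shared regions were recomputed under 12 alternatives. With each library alone (replicate 2 or replicate 3 left out), the share ranged from 9.28% to 17.5% at *Ptpn12*, from 8.72% to 21.8% at *Sh3bp5*, and from 6.89% to 11.8% at *Dhx57*, the rank from 1 to 5, from 1 to 2, and from 4 to 43, and the number at *Sh3bp5* from 14 to 29. With peaks counted only where they overlapped reciprocally by at least 50%, *Ptpn12* ranked 9 with 4 regions and a share of 4.08%, *Sh3bp5* ranked 3 with 6 and 4.64%, and *Dhx57* ranked 99 with 4 and 1.97%, since a narrow replicate 2 peak inside a wide replicate 3 peak then no longer counts. With windows of 500 bp on each summit, *Ptpn12* had 3.21%, 5 regions, and rank 123, whereas *Sh3bp5* ranked 1 and *Dhx57* ranked 9. With overlapping peaks merged as a union, *Ptpn12* had 6 regions and 13.6%, *Sh3bp5* ranked 1 with 15.4%, and *Dhx57* had 10.8%. With 2.5 kb at either gene end left out, *Ptpn12* ranked 4 and *Sh3bp5* ranked 1; by regions per 10 kb, they ranked 6 and 1. With regions under 1 kb apart joined, *Ptpn12* had 4. Among genes of at least 20 kb, *Ptpn12*, *Sh3bp5*, and *Dhx57* ranked 17, 19, and 49. A limit of 100 kb gave no value, since all 3 genes are shorter. The order of the 3 genes and the high ranks of *Ptpn12* and *Dhx57* therefore depend on these choices. *Sh3bp5* ranked 1 to 3 under all alternatives run on genes of at least 50 kb. With a stricter q-value, and with both lists shortened to equal length by strength, the shares were 8.90% and 8.42% at *Ptpn12*, 8.02% and 8.40% at *Sh3bp5*, and 6.57% and 6.60% at *Dhx57*. The depth of the libraries is unknown, and its part in these counts was not tested. No paired analysis was possible because there is 1 condition.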
